A study of Saccharomyces cerevisiae with 16 samples.

Results

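Loss of the vacuolar proton pump was examined by comparing the transcriptome of *vph1∆* yeast with that of wild type, using 4 *vph1∆* libraries and wild-type replicates 1, 2 and 4, which are 7 of the 16 libraries of the series. Wild-type replicate 3 was left out because it stood apart from all other libraries. There the 10 genes with the highest values made up 31.2% of all TPM (a transcript level corrected for length and scaled to the same total in each library), against 14.6 to 15.5% in the 7 libraries compared. All strains were prototrophic *Saccharomyces cerevisiae* derived from the parental line DHY211, and both groups carried the alleles *SAL1*+, *CAT5*(91M) and *MIP1*(661T) together with *HAP1*+, *TAO3*(1493Q), *MKT1*(30G) and *RME1*(INS-308A). The *vph1∆* strain carried in addition a NatMX cassette in place of *VPH1*, and deletions were made in a diploid from which haploids were obtained by sporulation. Cells were grown at room temperature in synthetic medium with dextrose and amino acids to an OD600 of 0.05, and duplicate cultures were grown on each of 2 days. The labels do not say which replicate numbers share a day or whether the cultures of a strain came from 1 clone, so the tests measure the spread between these cultures. The remaining libraries of the series are from *fab1∆* and *atg18∆* cells, 4 of each.

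The vacuole of yeast is its acidic, degradative and storage compartment. The vacuolar H+-ATPase acidifies it, and the resulting proton gradient drives the import of basic amino acids, calcium, zinc and other metals, while phosphate is stored inside as polyphosphate. Vph1 is the a subunit of the membrane sector of this pump at the vacuole, and its paralogue Stv1 serves the Golgi and endosomes. Cells without any active V-ATPase are known for poor growth at alkaline pH and sensitivity to calcium and metals, and for defects in iron homeostasis.

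The 3 wild-type libraries correlated with each other at r = 0.994 to 0.998, the 4 *vph1∆* libraries at 0.993 to 0.997, and libraries of the 2 strains at 0.989 to 0.993 (log2(TPM + 1), across genes, which are not independent replicates). Sequencing depth is unknown, because TPM does not carry it. Ribosomal RNA held 0.160 to 0.337% of the TPM in wild type and 0.342 to 0.670% in *vph1∆*, without overlap, and the part of this difference in the results was not tested. The labels name polyA RNA, whereas the library protocol leaves out polyA selection. None of the 7 **a**-specific genes tested changed, and *MFA2*, which encodes **a**-factor, was at 8290 to 9176 TPM in all 7 libraries. *STE3*, the **a**-factor receptor of alpha cells, was at 0.329 to 0.577 TPM. The alpha-specific genes *SAG1* and *MF(ALPHA)2* were at 5.89 to 8.07 and 6.10 to 8.35 TPM. *MF(ALPHA)1*, the only call among 4 alpha-specific genes tested, was at 2.52 to 2.79 TPM in wild type and 0.930 to 1.48 TPM in *vph1∆*. The median log2 fold change by nuclear chromosome lay between 0.045 and 0.076, so no chromosome stood apart.

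Of 6376 genes tested, those whose TPM averaged 1 or more, 385 were higher in *vph1∆* (6.04%) and 112 were lower (1.76%), together 7.79%, at an adjusted p below 0.05 with limma. In each of these 497 genes the libraries of the 2 strains did not overlap, as was also true of 21.8% of all genes tested. Most changes were small, with a median absolute log2 fold change of 0.44, and 21 genes were higher and 11 lower by more than 1 on this scale. Fold changes are differences of mean log2(TPM + 1), which understate the change of genes near or below 1 TPM. The median over all genes was 0.063, and after scaling the libraries to a common median the calls were 253 higher (3.97%) and 220 lower (3.45%), so that the share of calls that were higher went from 77.5% to 53.5%. Without wild-type replicate 1 there were 216 higher and 57 lower genes, and without wild-type replicate 2 there were 190 and 53.

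**Figure D1:**
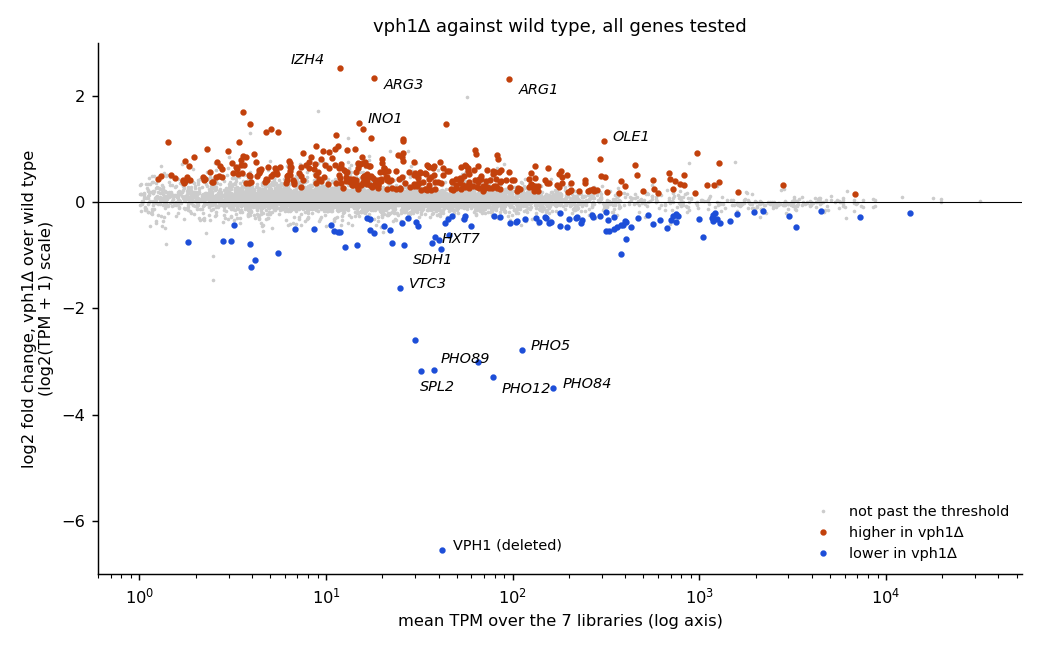
Log2 fold change of *vph1∆* over wild type (vertical axis, log2(TPM + 1) scale) against the mean TPM over the 7 libraries (horizontal, log axis) for the 6376 genes tested, each point being 1 gene. Orange points are the 385 genes higher in *vph1∆*, blue points the 112 lower genes, and grey points did not pass the threshold. The phosphate genes *PHO84* to *VTC3* form a group far below the other genes, between -1.62 and -3.50, and *VPH1* itself lies at -6.54.

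*VPH1* (YOR270C, SacCer3 chromosome XV, 828052 to 830574, minus strand) was at 86.7, 91.7 and 113 TPM in wild type and at 0.191, 0, 0.00544 and 0.0104 TPM in *vph1∆* (log2 fold change -6.54, SE 0.11, adjusted p = 6.45e-09), so the deletion is seen in all 4 libraries. *STV1*, the Golgi paralogue, was at 17.5, 17.9 and 20.8 TPM in wild type and at 17.9, 23.0, 22.6 and 19.7 TPM in *vph1∆*, a difference of 0.14 (SE 0.10, adjusted p = 0.510). No other gene of the 8 listed for the membrane sector, the 8 for the catalytic V1 sector or the 8 for assembly of the pump passed the threshold, and the median log2 fold changes of the V1 and assembly lists were 0.053 and 0.10. Of the genes beside the deletion, *FSF1* (831059 to 832042), which encodes a mitochondrial membrane protein, was at 73.5, 72.0 and 72.5 TPM in wild type and 95.6, 108, 88.8 and 93.8 TPM in *vph1∆* (0.40, SE 0.07, adjusted p = 0.00762). *PAC1*, on the other side, differed by 0.14 (SE 0.07, adjusted p = 0.300).

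The largest decreases were in the phosphate regulon, the genes that Pho4 induces when phosphate is scarce. Of 25 listed genes tested, 11 were lower in *vph1∆* and none was higher, with a median over the list of -0.40, where 1.76% of all genes were lower. The 11 comprise transporters, secreted acid phosphatases, a regulator of uptake, subunits of the vacuolar polyphosphate polymerase, a nucleotide phosphatase and a gene of unknown function.

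The most changed of the transporters was *PHO84* (YML123C, chromosome XIII), which encodes the high-affinity proton-coupled phosphate permease. It was at 441, 428 and 161 TPM in wild type replicates 1, 2 and 4 and at 43.1, 54.4, 15.2 and 13.9 TPM in *vph1∆* replicates 1 to 4 (-3.50, SE 0.53, adjusted p = 0.00488). In both strains the level was higher in replicates 1 and 2 than in the later numbers, and within each set *vph1∆* was lower, 8.91-fold in replicates 1 and 2 and 11.1-fold in replicates 3 and 4, where wild type has 1 library. *PHO89*, which encodes the sodium-coupled phosphate transporter, was at 99.5, 101 and 29.8 TPM against 11.1, 16.8, 3.28 and 2.60 TPM (-3.17, SE 0.62, adjusted p = 0.0152). All 4 *vph1∆* libraries were below every wild-type library for both genes.

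The secreted acid phosphatases fell together. *PHO5* was at 302, 292 and 65.9 TPM in wild type and at 44.6, 50.1, 13.6 and 13.1 TPM in *vph1∆* (-2.79, SE 0.64, adjusted p = 0.0307). *PHO11* was at 174, 174 and 45.5 TPM against 24.1, 22.4, 7.15 and 6.96 TPM (-3.01), and *PHO12* at 210, 211 and 64.7 TPM against 22.6, 25.1, 7.84 and 7.37 TPM (-3.29). The last 2 genes are near-identical copies at different chromosome ends, and reads may have been divided between them.

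*SPL2*, whose product restrains low-affinity phosphate uptake, was at 79.3, 91.6 and 28.5 TPM in wild type and at 11.0, 10.2, 2.50 and 3.13 TPM in *vph1∆* (-3.18, SE 0.53, adjusted p = 0.00729). *PHM6*, of unknown function, went from 72.5, 78.9 and 23.9 TPM to 9.42, 13.0, 6.02 and 4.74 TPM (-2.59). The polymerase genes changed less. *VTC3* was at 45.8, 50.8 and 28.0 TPM against 12.4, 15.3, 11.8 and 10.7 TPM (-1.62, SE 0.19, adjusted p = 0.00209), *VTC1* fell by 0.97 and the catalytic subunit *VTC4* by 0.88, while *VTC2* differed by -0.35 (adjusted p = 0.0521) and passed after median scaling, at -0.44 (adjusted p = 0.00615). *PHM8*, which encodes a nucleotide phosphatase, fell by 0.56. Neither the activator *PHO4* (-0.14, adjusted p = 0.475, and positive at 0.24 with wild-type replicate 3 included) nor the kinase inhibitor *PHO81* (-0.40, adjusted p = 0.0968) passed the threshold, although *PHO81* did after median scaling, at -0.48.

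**Figure D2:**
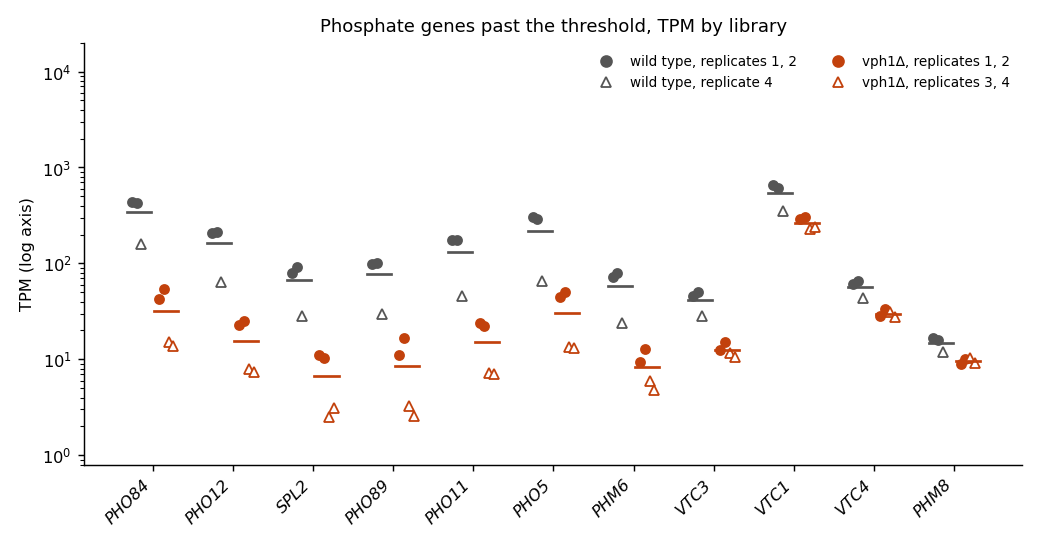
TPM (vertical, log axis) of the 11 phosphate genes lower in *vph1∆*, with grey symbols for wild type and orange for *vph1∆*, 1 symbol per library and a line at each strain's mean. Filled circles are replicates 1 and 2, open triangles replicates 3 and 4. For *PHO84* the wild-type libraries sit between 161 and 441 TPM and the *vph1∆* libraries between 13.9 and 54.4 TPM, with replicates 1 and 2 above the others in both strains.

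The spread between replicates 1 and 2 and the later numbers enters the error of these genes. Without wild-type replicate 1, *PHO89*, *PHO5*, *PHO11*, *PHM8* and *VTC1* did not pass the threshold (adjusted p from 0.0577 to 0.113) and 6 of the 25 genes remained called lower, as was the case without replicate 2 (0.0649 to 0.13). Without *vph1∆* replicate 4, *PHO5*, *PHM8* and *VTC1* did not pass (0.0792, 0.0604 and 0.0553) and 8 genes were lower, and *PHO5* did not pass without *vph1∆* replicate 3 either (0.0609). With replicates 1 and 2 alone, 13 of the 26 listed genes that passed the TPM filter in that fit were lower, against 1.88% of all genes. With wild-type replicate 3 included 2 of 25 were lower, *SPL2* at -3.08 and *PHM6* at -2.44.

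Pho4 binds the E-box CACGTG, which it shares with Cbf1. This motif occurred in the 500 bases before the start codon in 10 of the 11 lower phosphate genes and in 8 of the 14 listed genes that were not called, against 6.28% of the 5729 protein-coding genes searched (both strands, the motif being its own reverse complement). The site nearest the start codon whose 30-base window lies within the stretch searched is shown for the 10 genes in order of their decrease, 5′ to 3′ on the strand of the gene with the E-box in capitals, read from the SacCer3 genome.
PHO84 (chrXIII:26197-26226, minus): tgttatttccagCACGTGgggcggaaatta
PHO12 (chrVIII:551804-551833, plus): tcttggcgttcaCACGTGggtttaaaaagg
SPL2 (chrVIII:375114-375143, minus): agtcactgcagcCACGTGcctagatctatt
PHO89 (chrII:798828-798857, minus): atgacaatgcagCACGTGggagacaaatag
PHO11 (chrI:225165-225194, plus): tcttggcgttcaCACGTGggtttaaaaagg
PHO5 (chrII:431187-431216, minus): ccttggcactcaCACGTGggactagcacag
PHM6 (chrIV:1022583-1022612, minus): gagcttcgctgaCACGTGggaggtgggata
VTC3 (chrXVI:517312-517341, minus): tgcagtcgcaagCACGTGcatgcgattttg
VTC1 (chrV:302637-302666, plus): aatagatattagCACGTGtctcggagagaa
VTC4 (chrX:413495-413524, minus): cacgtggctgcaCACGTGaatgaaaaagaa
The windows of *PHO11* and *PHO12* are identical, and the E-box begins 283 bases before the start codon in both. *SPL2* holds 4 copies of the motif, *PHO84*, *VTC3* and *VTC4* hold 2 each, and the others hold 1. *PHM8*, the least changed of the 11, holds none in this window. A motif match is a description of the letters and not of binding.

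Compared directly with the other mutants in 1 model of 15 libraries, *vph1∆* differed from *fab1∆* in 983 higher genes (15.3%) and 1652 lower genes (25.8%), 41.1% of 6408 tested, and from *atg18∆* in 569 higher (8.88%) and 204 lower genes (3.18%), 12.1% in all. These contrasts use the same *vph1∆* libraries as the contrast with wild type. Against *atg18∆*, 13 of the 25 phosphate genes were lower in *vph1∆* and 1 was higher, with *PHO84* at -3.02 (SE 0.46, adjusted p = 0.000601). Against *fab1∆*, 4 were lower and 7 were higher. *PHO84* differed there by 0.93 (adjusted p = 0.117), *PHO89* by 1.13 (adjusted p = 0.108) and *VTC3* by 0.43 (adjusted p = 0.0395). Against *atg18∆* the values of *PHO89* and *VTC3* were -2.65 and -1.37.

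Among the genes that were higher, arginine synthesis held 2 of the 3 largest changes. Of the 9 genes of the pathway 5 were higher in *vph1∆* and none lower, where 6.04% of all genes were higher. The median over the 9 was 0.57. *ARG1* (YOL058W, chromosome XV), which encodes argininosuccinate synthase, was at 27.8, 27.0 and 30.8 TPM in wild type and at 134, 137, 159 and 155 TPM in *vph1∆* (2.32, SE 0.08, adjusted p = 9.62e-07), a 5.12-fold increase. *ARG3* (YJL088W, chromosome X), for ornithine carbamoyltransferase, went from 4.13, 4.06 and 6.06 TPM to 20.5, 25.5, 35.5 and 31.3 TPM (2.33, SE 0.19, adjusted p = 0.000338). Every *vph1∆* library lay above every wild-type library for both, and the differences were 2.27 and 2.23 in replicates 1 and 2, against 2.31 and 2.28 in the later numbers.

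Other steps of the pathway changed less. *ARG56*, whose product is cleaved into acetylglutamate kinase and reductase, was at 8.08, 8.14 and 12.4 TPM against 17.0, 22.1, 29.4 and 25.3 TPM (1.21, SE 0.19). The acetylornithine aminotransferase gene *ARG8* rose by 0.74 and *CPA1*, the small subunit of carbamoyl phosphate synthase, by 0.57. *ARG8* did not pass the threshold without wild-type replicate 1 (adjusted p = 0.0598) or 2 (adjusted p = 0.0668). The last step, *ARG4*, differed by 0.27 (SE 0.11, adjusted p = 0.205) and *ARG7* by 0.19 (SE 0.05, adjusted p = 0.0621). Arginase, *CAR1*, which degrades arginine, also rose, from 32.4, 30.2 and 24.3 TPM to 58.8, 56.8, 42.3 and 41.7 TPM (0.76, adjusted p = 0.0147), and did not pass after median scaling. *ARG1* and *ARG3* were higher in *vph1∆* than in *fab1∆* (1.47 and 2.55) and than in *atg18∆* (1.66 and 1.82, adjusted p at most 2.41e-05 in all 4).

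Gcn4 activates many amino acid synthesis genes through the core TGACTC. All 5 arginine genes that rose hold it within 500 bases of the start codon, on either strand. So do 14 of the 17 genes that rose in the arginine, lysine, branched-chain, histidine and purine lists together (sulfur genes were not part of this count). The core occurred in 17.6% of the higher genes searched and in 12.8% of all genes searched. Uncalled genes of these lists were not counted, so whether the core goes with the rise was not tested. Bas1 reads the same core. Sites chosen in the same way are given for the 5 genes, with the core (or its reverse complement, GAGTCA) in capitals.
ARG3 (chrX:268473-268502, plus): agggtcacgtcgTGACTCatatgctttctt
ARG1 (chrXV:218925-218954, plus): tgccgtatggaaGAGTCAtttaaaggcagg
ARG56 (chrV:295221-295250, plus): ggtggtaattgaTGACTCttctattttttt
ARG8 (chrXV:58567-58596, plus): cagctcgctatgTGACTCacttaaagtaca
CPA1 (chrXV:882592-882621, plus): cttttcttttctTGACTCgtcgtttctttt
The mRNA of *GCN4* itself was at 513, 515 and 686 TPM in wild type and 444, 635, 704 and 597 TPM in *vph1∆*. The 2 strains overlapped (0.051, SE 0.16, adjusted p = 0.90), and the sign of the difference turned to -0.035 after median scaling. *PCL5*, a cyclin that targets the Gcn4 protein for degradation and is itself a Gcn4 target, was at 39.6, 41.8 and 38.3 TPM against 73.1, 84.1, 82.8 and 77.6 TPM (0.97, SE 0.06, adjusted p = 0.000195). It holds no TGACTC in this window.

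**Figure D3:**
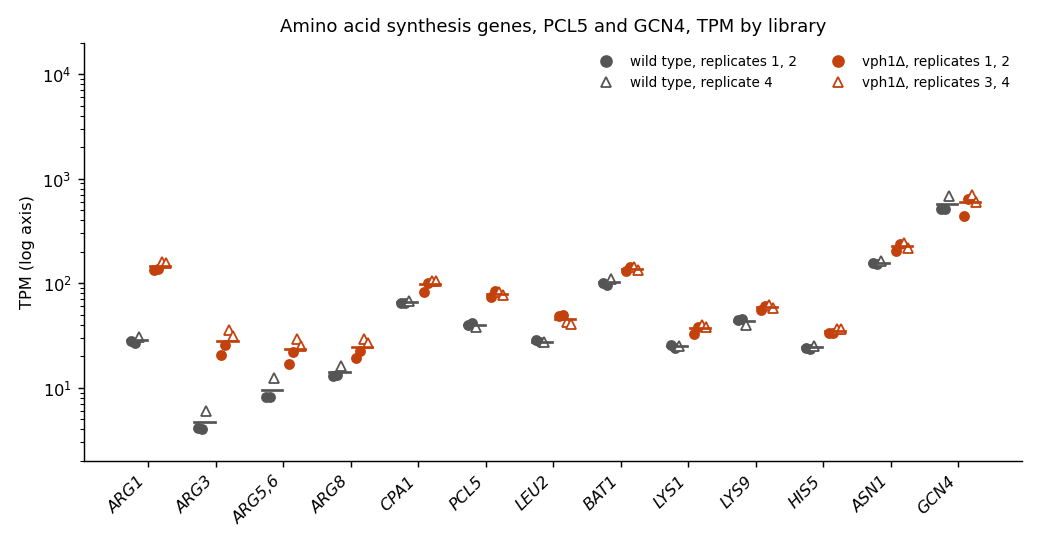
TPM (vertical, log axis) of arginine and other amino acid synthesis genes, *PCL5* and *GCN4*, with grey symbols for wild type and orange for *vph1∆*, filled circles for replicates 1 and 2, open triangles for replicates 3 and 4, and a line at each mean. *ARG1* lies between 27.0 and 30.8 TPM in wild type and between 134 and 159 TPM in *vph1∆*, whereas the libraries of the strains overlap for *GCN4*.

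Elsewhere in amino acid synthesis, all calls were increases, where 6.04% of all genes were higher. In the branched-chain pathway 4 of 12 genes rose, namely the transaminases *BAT2* (0.92, SE 0.08, adjusted p = 0.000510) and *BAT1* (0.43), *LEU2* (0.69) and *ILV5* (0.32). *LYS1* rose by 0.55 and *LYS9* by 0.45, the only calls among 9 lysine genes, and *HIS5* by 0.50 and *HIS3* by 0.26 among 7 histidine genes, of which *HIS3* did not pass after median scaling or in 5 of the 7 fits without 1 library. *ASN1*, for asparagine synthetase, went from 155, 153 and 163 TPM to 201, 239, 243 and 217 TPM (0.51, SE 0.07). In the sulfur list 6 of 30 rose, and 3 after median scaling, where 3.97% of all genes were higher after that scaling. *STR3*, cystathionine beta-lyase, rose most in this list, at 0.946 to 1.15 TPM in wild type and 2.42 to 3.98 TPM in *vph1∆* (1.01). None of 13 aromatic pathway genes was called, with a median of 0.11. Of the lysine, branched-chain, histidine, aromatic and sulfur genes together, 14 were higher, and 9 without wild-type replicate 1 or without replicate 2. At the plasma membrane the branched-chain amino acid permease *BAP2* and the peptide transporter *PTR2* rose by 0.60 and 0.57, and the proline permease *PUT4* fell from 7.84, 6.53 and 4.83 TPM to 2.83, 2.68, 1.62 and 2.72 TPM (-1.09, SE 0.18, adjusted p = 0.00614). *PTR2* did not pass without 1 of wild-type replicates 1 and 2 or *vph1∆* replicates 2 to 4. Of 16 vacuolar amino acid transporters *RTC2*, an exporter of basic amino acids, was the only one called (0.86, adjusted p = 0.00279), at 0.929 to 1.20 TPM in wild type and 2.32 to 3.07 TPM in *vph1∆*.

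Most nuclear genes of the respiratory chain and ATP synthase were lower in *vph1∆*, with list medians from -0.18 (complex II) to -0.36 (complex III). Single genes ranged from -0.82 to 0.44. Of 45 genes in these 4 lists, 27 were lower and 1 was higher, where 1.76% of all genes were lower. The median log2 fold change was -0.30 against 0.063 for all genes. The counts were 2 of 7 for complex II, 6 of 9 for complex III, 9 of 12 for cytochrome c and its oxidase, and 10 of 17 for ATP synthase. The largest decrease was in *SDH1* (YKL148C), the flavoprotein subunit of succinate dehydrogenase, from 34.8, 32.4 and 37.9 TPM to 15.8, 19.3, 23.1 and 20.3 TPM (-0.82, SE 0.12, adjusted p = 0.00402). *COX5A*, the aerobic form of its oxidase subunit, was at 375, 377 and 406 TPM against 244, 260, 291 and 271 TPM (-0.54, SE 0.06, adjusted p = 0.00205), and *COX4* fell by the same amount. *QCR6* fell by 0.47 and *QCR10* by 0.43 in complex III, and *ATP2*, the catalytic beta subunit of ATP synthase, by 0.42.

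The inhibitors of ATP synthase moved in opposite directions. *INH1*, which blocks ATP hydrolysis by the enzyme, was at 522, 502 and 534 TPM in wild type and at 322, 300, 326 and 335 TPM in *vph1∆* (-0.69, SE 0.05, adjusted p = 0.000250). Its paralogue *STF1* was at 64.2, 53.4 and 51.6 TPM against 75.7, 80.3, 72.0 and 76.2 TPM (0.43, adjusted p = 0.0121), and did not pass after median scaling or without wild-type replicate 2. The letters CCAAT, the site of the Hap activator complex, were sought on either strand in the 500 bases before the start codon. They occurred in 24 of the 27 lower respiratory genes (88.9%), in 73.5% of all lower genes searched and in 62.6% of all genes searched. Respiratory genes that were not lower were not counted, so whether the letters go with the decrease was not tested. *HAP4*, the regulatory subunit of that complex, differed by 0.026 (SE 0.15, adjusted p = 0.950), with its sign turned to -0.060 after median scaling. The nuclear genes of the mitochondrial ribosome were not called in either direction, 0 of 68, and had a median of 0.044. In the tricarboxylic acid and glyoxylate list *MDH1* fell by 0.37 and the peroxisomal citrate synthase *CIT2* and *DLD3* rose by 0.41 each. There were 3 calls in each direction among 21 genes, where 6.04% of all genes were higher and 1.76% lower.

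**Figure D4:**
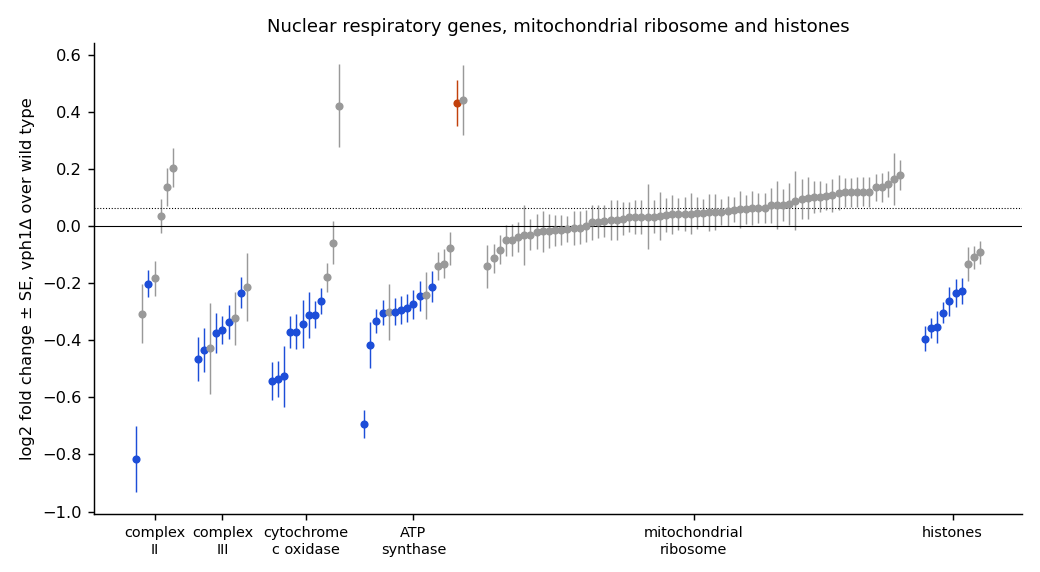
Log2 fold change of *vph1∆* over wild type (vertical, with bars of 1 SE) for each gene of 6 lists, ordered by value within a list along the horizontal axis. Blue points are lower, the orange point (*STF1*) higher, grey points not past the threshold, and the dotted line marks the median of all genes at 0.063. Of the 45 respiratory genes 39 lie below 0, all 10 histone genes lie below 0, and the mitochondrial ribosome lies around the median of all genes.

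The 27 respiratory decreases became 21 without wild-type replicate 1, 20 without replicate 2, 25 with replicates 1 and 2 alone and 31 after median scaling, against 3.45% of all genes lower after that scaling. With wild-type replicate 3 included 1 remained, *INH1* (-0.74, adjusted p = 0.0358). Against *fab1∆* the complex II, complex III, oxidase and ATP synthase lists gave 7, 6, 7 and 13 genes lower in *vph1∆* and none higher. In that contrast 25.8% of all genes were lower. Against *atg18∆* these lists gave 1, 6, 7 and 10 lower, with 1 complex II gene, 1 oxidase gene and 2 ATP synthase genes higher. There 3.18% of all genes were lower and 8.88% higher. The histone genes also fell against wild type, 7 of 10 without a rise, where 1.76% of all genes were lower. *HHT1* was at 1500, 1458 and 1502 TPM against 1199, 1081, 1143 and 1101 TPM (-0.40, SE 0.04, adjusted p = 0.00168). The histone count was 4 without wild-type replicate 1 or replicate 2 and 5 after median scaling.

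The largest single increase was that of *IZH4* (YOL101C, chromosome XV), a membrane protein gene of the PAQR family linked to zinc, sterol and fatty acid metabolism. It was at 2.36, 1.88 and 3.00 TPM in wild type and at 20.7, 25.0, 15.3 and 14.5 TPM in *vph1∆* (2.52, SE 0.19, adjusted p = 0.000333), a 7.83-fold difference in mean TPM. Its family members *IZH1* and *IZH2* rose by 0.68 and 0.64. *ZRT2*, the low-affinity zinc transporter, fell from 49.9, 51.8 and 53.5 TPM to 27.7, 29.9, 33.7 and 33.5 TPM (-0.71, SE 0.08, adjusted p = 0.00145). The other call among 17 zinc-regulon genes was the cell wall gene *PST1* (0.48), where 6.04% of all genes were higher and 1.76% lower.

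Some genes of membrane lipids also rose. *OLE1*, the only fatty acid desaturase of yeast, was at 165, 171 and 202 TPM against 380, 537, 369 and 325 TPM (1.14, SE 0.15, adjusted p = 0.00309), and *MGA2*, which encodes a membrane-bound activator of *OLE1*, went from 5.42, 5.78 and 7.94 TPM to 11.7, 16.2, 13.8 and 11.2 TPM (0.95, SE 0.15). *INO1*, inositol-3-phosphate synthase, was at 7.77, 7.89 and 5.06 TPM against 20.5, 22.0, 21.5 and 19.7 TPM (1.49, SE 0.13, adjusted p = 0.000436), and *OLE1* and *INO1* were the only calls among 23 inositol and phospholipid genes, whose median was 0.044. In ergosterol synthesis 5 of 28 rose and none fell, where 6.04% of all genes were higher, and the list median was 0.16. *ERG28*, *ERG3* and *ERG2* rose by 0.58, 0.52 and 0.41. After median scaling *ERG2* did not pass (0.32, adjusted p = 0.0734) and 4 of the 28 were higher, where 3.97% of all genes were. *IZH4*, *OLE1* and *MGA2* were also higher in *vph1∆* than in *fab1∆* (1.86, 1.06 and 1.03) and than in *atg18∆* (2.19, 0.85 and 0.78). *INO1* was higher than in *atg18∆* by 1.26 and lower than in *fab1∆* by 0.92.

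Genes for redox enzymes formed a further group, with 9 of 33 in the oxidative stress list higher and none lower, where 6.04% of all genes were higher. The 9 became 6 after median scaling, 8 without wild-type replicate 1 and 7 without replicate 2. With wild-type replicate 3 included 1 was higher, and in the model of 15 libraries 16 were. *OYE3*, an NADPH oxidoreductase, was at 1.03, 1.09 and 0.845 TPM in wild type and 6.40, 6.64, 4.31 and 4.77 TPM in *vph1∆* (1.70, SE 0.14, adjusted p = 0.000400). The aryl-alcohol dehydrogenase family members *AAD6* and *YFL057C* rose by 0.86 and 0.81 and the mitochondrial peroxiredoxin *PRX1* by 0.75. *YFL057C* has no RefSeq entry, and whether it and *AAD6* are separate loci was not tested. Glutathione transferase *GTT2* rose by 0.73, *TSA2* by 0.50 and thioredoxin *TRX2* by 0.39, the last of which did not pass after median scaling. Outside the list but among the 15 largest increases were *HBN1*, a nitroreductase-like gene (4.50 to 6.52 TPM against 12.7 to 17.8 TPM, 1.26), the reductase genes *YGL039W* (1.18) and *GCY1* (1.00), and *YML131W* (1.15), a putative reductase. *HBN1*'s neighbour *FRM2*, of the same family, rose by 1.38 at a lower level (1.98 to 2.22 TPM against 5.14 to 9.93 TPM).

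In the cell wall and integrity list 14 of 28 genes rose and none fell, where 6.04% of all genes were higher. *PIR3*, a cross-linked wall glycoprotein, was at 6.99, 6.21 and 7.11 TPM against 13.8, 16.0, 14.8 and 16.0 TPM (1.06, SE 0.08, adjusted p = 0.000338). *PRM5*, a standard reporter of the integrity pathway, was at 15.7, 15.7 and 16.3 TPM against 27.2, 30.0, 33.7 and 30.8 TPM (0.89, SE 0.08, adjusted p = 0.000400). *KDX1*, which encodes a Slt2-related kinase, rose by 0.97, the wall protein gene *NCW2* by 0.80 and *SLT2*, the MAP kinase of the pathway, by 0.51. The 14 became 10 without wild-type replicate 1, 7 without replicate 2 and 11 after median scaling. Against *atg18∆* 13 of the 28 were higher in *vph1∆* and none lower, where 8.88% of all genes were higher. Against *fab1∆* 15 were lower and 3 higher, where 25.8% of all genes were lower and 15.3% higher. *PIR3* was at -2.22 and *PRM5* at -0.89 against *fab1∆*.

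The iron regulon, which Aft1 activates when iron is short, gave few calls, and several of its genes divided the *vph1∆* cultures. Of 33 genes 3 rose, where 6.04% of all genes were higher. They were *ISU2*, a scaffold for iron-sulfur cluster assembly (0.78, SE 0.10, adjusted p = 0.00253), the mitochondrial iron carrier *MRS4* (0.38) and *LSO1* (1.14, at 0.261 to 3.46 TPM). *MRS4* did not pass without wild-type replicate 2, nor *LSO1* without replicate 1. *ISU2* was at 19.3, 18.5 and 16.3 TPM in wild type and at 35.5, 33.7, 28.2 and 29.0 TPM in *vph1∆*. *FIT2*, a wall mannoprotein that retains siderophores, was at 15.5, 14.8 and 11.2 TPM in wild type, at 159 and 159 TPM in *vph1∆* replicates 1 and 2, and at 20.2 and 20.3 TPM in replicates 3 and 4. Its overall difference of 1.98 did not pass the threshold (SE 0.75, adjusted p = 0.159), but did at 2.30 with a term for replicates 1 and 2 against 3 and 4 (adjusted p = 0.00847) and in the model of 15 libraries (adjusted p = 0.0404). With these fits 14 and 12 of the 33 iron genes were higher, in place of 3.

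The same division held for other uptake genes. *TIS11*, which degrades mRNAs of iron-using enzymes, was at 2.63, 3.18 and 1.45 TPM in wild type and at 23.8, 24.5, 3.65 and 3.91 TPM in *vph1∆*. The siderophore transporters *ARN2*, *ARN1* and *SIT1* were 4.04, 3.00 and 2.71 times the wild-type level in replicates 1 and 2 on the TPM + 1 scale, and within 0.43, 0.14 and 0.16 on the log2 scale in replicates 3 and 4. *FET3* and *FTR1*, the oxidase and permease of reductive uptake, were higher in replicates 1 and 2 by 0.85 and 0.89 and lower in replicates 3 and 4 by 0.39 and 0.40, so that leaving out *vph1∆* replicate 2 turned the sign of both overall differences, to -0.043 and -0.020.

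With replicates 1 and 2 alone, 19 of the 33 iron genes were higher in *vph1∆* and none lower, where 5.02% of all genes were higher, and the list median was 0.67. Within replicates 3 and 4, where wild type has 1 library and no test was made, the median was 0.14. A model in which the strain difference may vary between these sets, chosen after the data were seen, gave 5 genes of 6376 (0.0784%) at an adjusted p below 0.05. They were *FIT2* (-2.51, SE 0.11, adjusted p = 0.000171), *FTR1* (-1.30), *FET3* (-1.24) and *TIS11* (-1.73), and 1 gene outside the list, the chaperone gene *SSA1* (1.36, adjusted p = 0.00736). The 11 lower phosphate genes gave no call in this test, with a median of -2.67 in replicates 1 and 2 and -2.23 in replicates 3 and 4. All but *VTC4* and *PHM8* were higher in replicates 1 and 2 than in the later numbers in both strains. *VTC4* and *PHM8* were so in wild type only. The strain difference was -1.02 and then -0.57 for *VTC4*, and -0.71 and then -0.26 for *PHM8*. Whether these sets are the 2 days of culture was not tested, since the labels give no day.

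**Figure D5:**
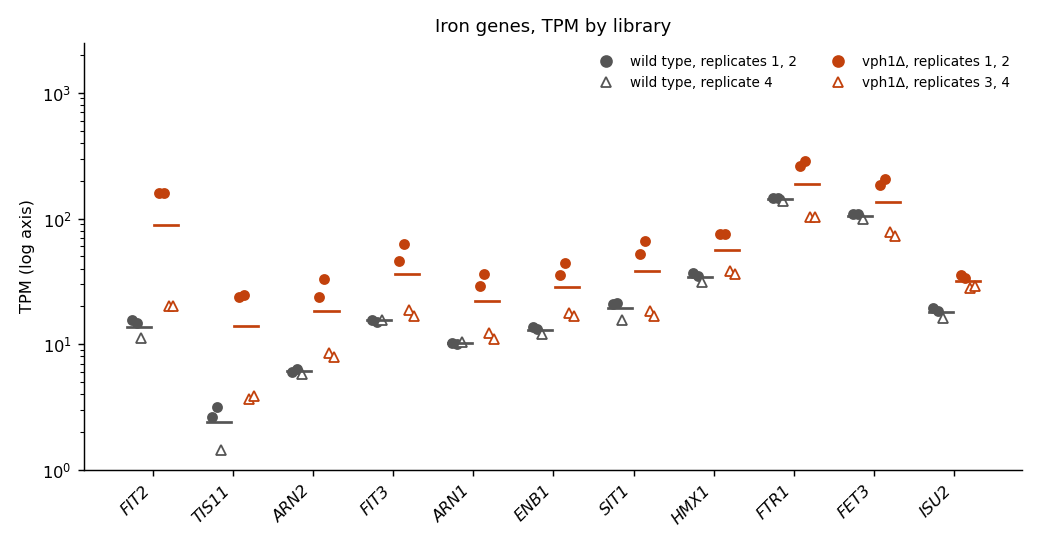
TPM (vertical, log axis) of 11 iron genes, with grey symbols for wild type and orange for *vph1∆*, filled circles for replicates 1 and 2, open triangles for replicates 3 and 4, and a line at each mean. *FIT2* is at 159 TPM in *vph1∆* replicates 1 and 2 and near 20 TPM in replicates 3 and 4, while *ISU2* is above wild type in all 4.

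Other lists that bear on the vacuole or on pH changed little. Of 18 calcium transport and calcineurin genes *CMK2* and *RCN2*, both calcineurin targets, rose by 0.47 and 0.48, where 6.04% of all genes were higher. None of 12 genes of the Rim101 alkaline response, 14 of plasma membrane proton and potassium transport, 9 of the copper regulon, 20 of TORC1 and its vacuolar EGO complex, or 19 of the PI(3,5)P2 complex and vacuole fusion passed the threshold, although 1 of the 14 did after median scaling. Among 19 vacuolar hydrolases the aminopeptidase *APE1* (0.64) and *TFS1*, an inhibitor of carboxypeptidase Y, rose, where 6.04% of all genes were higher. *TFS1* did not pass after median scaling (adjusted p = 0.12). Among 29 autophagy genes *ATG41* (0.59) and *ATG8* (0.47) rose, and each lost its call in 5 of the 7 fits without 1 library. *ATG41* also did not pass after median scaling (adjusted p = 0.0883). These 2 of 29 are near the share of 6.04% of all genes that were higher. The chaperone gene *SSA2* fell from 1359, 1351 and 1233 TPM to 647, 755, 1029 and 933 TPM (-0.67, SE 0.14, adjusted p = 0.0207), and did not pass without wild-type replicate 1 or 2 or *vph1∆* replicate 2. Among hexose transporters, high-affinity *HXT7* was at 56.7, 48.2 and 41.3 TPM against 23.9, 27.2, 32.3 and 29.1 TPM (-0.77, SE 0.12, adjusted p = 0.00614), and low-affinity *HXT1* rose by 0.48. Some of the 15 largest changes in each direction fell on little-studied genes, of which *CPP3* was at 21.8, 21 and 21 TPM against 57.8, 55.8, 64.7 and 63.8 TPM (1.46, SE 0.07, adjusted p = 1.1e-05). *YDR274C*, *YPR145C-A* and *YOL118C* rose by 1.38, 1.06 and 1.00, and *YIL014C-A* fell by 0.85. *PHD1*, an activator of filamentous growth genes, and its neighbour *MMO1* fell by 0.77 and 0.81. Growth genes gave few calls. Of 57 small-subunit ribosomal protein genes 1 was higher and 3 were lower, and of 81 large-subunit genes 3 were higher and 1 was lower. Of 105 ribosome biogenesis genes 1 was higher. Over all genes 6.04% were higher and 1.76% lower. The small-subunit, large-subunit and biogenesis medians were -0.021, -0.018 and 0.028, against 0.063 for all genes. In the subunit lists 38 of 57 and 50 of 81 genes lay below 0, as did 1960 of all 6376.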

How the data were processed

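The labels name polyA RNA, while the protocol text in them describes libraries without polyA selection, and which applies is not settled here. The authors quantified transcripts with Salmon (version 0.8.1 in the submitters' processing notes, another in the methods) against SacCer3. The deposited values are TPM per gene and sum to 1000000 in each library. No scaling between libraries is stated, and depth cannot be had from them. Of 6844 gene IDs, 6033 matched RefSeq names, and 53 of the calls have no RefSeq entry.

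Here log2(TPM + 1) was fitted for the 6376 genes whose TPM averaged 1 or more in the 7 libraries, with limma 3.58.1 in R 4.3.3 (variance trend, two-sided moderated test, Benjamini-Hochberg adjustment over all genes, threshold 0.05). Contrasts with *fab1∆* and *atg18∆* came from 1 model of 15 libraries without wild-type replicate 3, with 6408 genes. The study's own test needs read-level estimates and was not used. The fit was checked on simulated data. Genes named were *VPH1*, *STV1* and the neighbours, the 15 largest changes in each direction among called genes without overlap and with a mean of at least 10 TPM in the higher strain, every gene of lists no longer than 15, and the 5 smallest p values in longer lists. Not all of these are given, and other genes were named after their values were seen. The comparison and the lists were chosen with earlier results of these data known.

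Motifs were searched in the 500 bases before the start codon in the RefSeq copy of SacCer3. Alternatives were other pseudocounts (0.1 and 5), filters, normalizations and models, and each library left out. The values within replicates 1 and 2 and within 3 and 4, and the interaction model, were added after the data were seen.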

Additional observations from a re-analysis of the deposited data

Results flagged for a closer look

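Within the 4 *vph1∆* libraries, 1 library lay far from the other 3 in 6 of the 133 named genes examined. Chance flags about 1 in 20 groups. These were *VPH1* in replicate 1 (0.191 TPM, the others at most 0.0104), *ARG7* in replicate 3 (55.4 TPM, the others 51.2 to 51.5), *PUT4* in replicate 3 (1.62 TPM, the others 2.68 to 2.83), *MDH1* in replicate 3 (97.6 TPM, the others 91.2 to 92.1), and the histone genes *HTA2* in replicate 1 (1175 TPM) and *HTB1* in replicate 4 (1024 TPM).

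The difference from wild type itself differed between replicates 1 and 2 and replicates 3 and 4 for 5 genes. In replicates 3 and 4 it was lower by 2.51 on the log2 scale for *FIT2* (-2.51), by 1.73 for *TIS11* (-1.73), by 1.3 for *FTR1* (-1.3) and by 1.24 for *FET3* (-1.24), all of the iron regulon, and higher by 1.36 for the chaperone gene *SSA1*. *SSA1* was at 273, 257 and 149 TPM in wild type replicates 1, 2 and 4 and at 148, 166, 238 and 218 TPM in *vph1∆* replicates 1 to 4, so that the strains stood in opposite order in the 2 sets. Wild type has 1 library in the later set, and the cause was not tested.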

How the results depend on the processing

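Of 497 genes called, 497 stayed called with a pseudocount of 0.1 and 20 with wild-type replicate 3 included, which gave 20 calls (16 higher, 4 lower). One model of 15 libraries gave 944 (744 higher, 200 lower) and a term for replicates 1 and 2 against 3 and 4 gave 776 (592 and 184). Median scaling gave 253 higher and 220 lower genes, and quantile normalization 231 lower. After each strain's mean was removed, same-numbered libraries correlated at 0.45, -0.0062 and 0.11, and wild-type replicate 4 with *vph1∆* replicate 3 at 0.52. Removing the means of so few libraries shifts such values, so they cannot decide whether replicate numbers pair the libraries. A replicate block gave 667 calls, with 177 lower. The block also gave 15 higher iron genes in place of 3, with *FIT2* at 2.47 (adjusted p = 0.000724) and *TIS11* at 2.13 (adjusted p = 0.000249), and brought *VTC2* (-0.40, adjusted p = 0.0127) and *PHO81* (-0.42, adjusted p = 0.0407) past the threshold. Leaving out 1 library at a time gave 243 to 579 calls, 190 to 466 higher and 53 to 114 lower. Against *atg18∆*, *vph1∆* and *atg18∆* alone gave 411 calls in place of 773. With the block, *vph1∆* gave 3414 calls against *fab1∆* and 1049 against *atg18∆*.

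The alternatives were examined for 113 called genes, not all of which the text names. None of the 113 changed sign, and 25 lost their call without at least 1 library. Among the 25 were also *BAP2* (wild-type replicate 2), *DLD3* (wild-type 1 or 2), *TFS1* (wild-type 2 or *vph1∆* 4) and *BNA4* (wild-type 2 or 4, *vph1∆* 2 or 4). *GCN4* turned to -0.035 after median scaling, -0.037 with the block and -0.0058 with the term, and lay between -0.037 and 0.19 without single libraries. *HAP4* turned to -0.060 after median scaling and after quantile normalization, -0.044 with the block and -0.017 with the term, and lay between -0.053 and 0.15 without single libraries. With wild-type replicate 3 included *PHO4* was at 0.24 and *SSA1* at 0.28. Without single libraries *FET3* lay between -0.043 and 0.46 and *FTR1* between -0.020 and 0.46, the lowest values being those without *vph1∆* replicate 2. The cause of these changes was not tested.

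Low genes carry a counting error that cannot be given from TPM. Of the fits without 1 library, those with the fewest calls were without wild-type replicate 1 (273) and replicate 2 (243). Replicate 4 is the only wild-type library set against *vph1∆* replicates 3 and 4.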

Other observations

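Several genes of NADPH and sugar phosphate metabolism rose in *vph1∆* and were named after their values were seen. *GND1*, 6-phosphogluconate dehydrogenase of the pentose phosphate pathway, was at 230, 225 and 269 TPM in wild type and at 319, 350, 354 and 341 TPM in *vph1∆* (log2 fold change 0.50, SE 0.07, adjusted p = 0.00363). Transaldolase *TAL1* rose by 0.39, the minor isoenzyme *GND2* by 0.62 and *SOL4*, a 6-phosphogluconolactonase, by 0.77. *SSU1*, the sulfite pump, went from 5.08, 5.48 and 5.56 TPM to 8.81, 10.2, 11.7 and 11.3 TPM (0.84, SE 0.10, adjusted p = 0.00212). The kynurenine pathway genes *BNA5* and *BNA4*, for NAD synthesis from tryptophan, fell by 0.56 and 0.43, and *IMD2*, IMP dehydrogenase of guanine nucleotide synthesis, by 0.65.

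Of 81 small nucleolar and spliceosomal RNAs tested 13 were higher in *vph1∆* (6.04% of all genes were) and 1 was lower, with a median of 0.28. Of 40 transfer RNAs 4 were higher, with a median of 0.26, and of 6 ribosomal RNA features 2 were higher, with a median of 0.72. The share of TPM from ribosomal RNA was also higher in *vph1∆*, as given above, and its part in these values was not tested.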
